A study of Mus musculus with 16 samples.

Results

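The immediate-early genes described here are 10 transcription factor and co-regulator genes, Fos, Fosb, Jun, Junb, Egr1, Atf3, Ier2, Nr4a1, Maff and Myc, chosen by name from the gene count table of a mouse heart study. All 10 are among the 55573 genes of the table, and all 10 passed the filter on low counts that left 16857 genes for testing. Wild-type pups had been injected under the skin on postnatal day 1 with AAV9 that carried either GFP, the control cargo, or the long noncoding RNA Cardinal, each behind the chicken cardiac TNT promoter, which drives expression in cardiomyocytes. The grown male mice then had TAC (constriction of the transverse aorta, against which the left ventricle must pump at raised pressure) or a sham operation in which nothing was ligated. Poly(A) RNA of the heart apex, collected 4 weeks after surgery, was sequenced as single-end reads of 50 bases. Each virus was thus studied with sham surgery and with TAC, which makes 4 groups of 4 mice, and each mouse carries the number that ends its label. These are 1 to 4 in both sham groups, 1, 3, 4 and 7 in AAV9-GFP TAC and 1, 4, 5 and 6 in AAV9-Cardinal TAC. The labels do not say what the number stands for. Nor do they state that each library is a separate animal, although they are called mice here, so p-values measure the spread between these libraries.

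Immediate-early genes are transcribed within minutes of a stimulus by factors that already wait in the cell, such as SRF with its ELK partners and CREB, so that no new protein is needed for their first wave. Their mRNAs are short-lived, and most encode transcription factors that switch on later genes. In the heart they are known as an early response to stretch, pressure and neurohormones. Fos and Fosb pair with Jun and Junb to form AP-1, and Atf3 is a related bZIP protein that acts mostly as a repressor. Egr1 is a zinc finger factor, Nr4a1 an orphan nuclear receptor, Maff a small Maf protein without a transactivation domain, Myc a growth-promoting bHLH factor, and Ier2 a nuclear protein of less defined function.

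The reads assigned to genes numbered from 16441997 to 21904589 per library, and 15 of the 16 libraries held at least 21525012. The exception was mouse 4 of AAV9-Cardinal sham, the library with 16441997. Cardinal itself, listed as Gm12295, reached 3.42 to 7.24 CPM (read counts scaled to library size, with TMM normalization) in AAV9-GFP hearts and 18.3 to 93.9 CPM in AAV9-Cardinal hearts, so both virus labels matched the counts. The cardiomyocyte markers Myh6, Tnnt2, Tnni3, Actc1 and Ryr2 summed to between 26690 and 37560 CPM in every mouse, as heart tissue should show. Neutrophil, adipocyte and skeletal muscle markers, 5 of each, each stayed under 1 CPM on average over the 16 mice.

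The sequence just before the RNA start was read for 7 of the 10 genes (Fos, Fosb, Jun, Junb, Atf3, Nr4a1 and Maff) from RefSeq, build GRCm38.p6, and 5 windows of 250 bases are printed. Fos, Junb, Fosb and Maff are shown because their levels deviated together from mouse to mouse (described further on), and Jun because it rose with TAC in both virus groups and did not follow them. Each runs 5′ to 3′ on the strand of the gene and ends at the base before the start, and capitals mark the matched motifs.
Fos promoter, chr12:85473640-85473889, plus strand: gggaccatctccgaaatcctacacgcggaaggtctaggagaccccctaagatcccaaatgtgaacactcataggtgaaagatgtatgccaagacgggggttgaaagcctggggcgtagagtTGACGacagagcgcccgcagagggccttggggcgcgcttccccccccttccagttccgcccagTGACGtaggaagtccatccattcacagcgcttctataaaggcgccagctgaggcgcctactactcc
Junb promoter, chr8:84978749-84978998, minus strand: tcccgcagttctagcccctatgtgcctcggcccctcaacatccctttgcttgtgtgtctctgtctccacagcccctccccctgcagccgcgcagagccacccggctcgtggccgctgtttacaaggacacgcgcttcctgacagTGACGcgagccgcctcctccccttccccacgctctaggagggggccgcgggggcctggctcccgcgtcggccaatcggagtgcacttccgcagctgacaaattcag
Fosb promoter, chr7:19310046-19310295, minus strand: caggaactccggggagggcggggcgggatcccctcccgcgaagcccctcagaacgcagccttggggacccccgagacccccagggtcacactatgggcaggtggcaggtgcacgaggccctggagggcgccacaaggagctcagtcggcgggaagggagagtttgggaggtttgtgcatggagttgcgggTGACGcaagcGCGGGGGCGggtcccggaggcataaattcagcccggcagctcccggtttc
Maff promoter, 1 of 3 starts, chr15:79347270-79347519, plus strand: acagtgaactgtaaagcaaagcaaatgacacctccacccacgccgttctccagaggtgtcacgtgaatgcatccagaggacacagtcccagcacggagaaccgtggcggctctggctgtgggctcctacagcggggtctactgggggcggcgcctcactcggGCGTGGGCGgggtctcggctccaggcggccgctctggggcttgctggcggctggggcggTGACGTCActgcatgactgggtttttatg
Jun promoter, chr4:95052223-95052472, minus strand: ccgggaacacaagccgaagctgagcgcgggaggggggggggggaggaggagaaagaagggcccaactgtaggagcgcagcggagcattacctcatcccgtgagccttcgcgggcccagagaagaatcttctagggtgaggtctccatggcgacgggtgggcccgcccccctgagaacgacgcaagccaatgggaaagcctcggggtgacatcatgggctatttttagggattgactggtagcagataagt

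The motifs searched, on both strands, were the CArG box of SRF, the CREB site TGACGTCA, the AP-1 site TGANTCA and the EGR site GCGNGGGCG. The shorter TGACG, the opening letters of the CREB site and contained in it, was added after the sequences had been read. Among 32851 promoter windows of the same 250 bases in the mouse annotation, 1.47% held a CArG box, 1.55% TGACGTCA, 6.75% TGANTCA, 4.7% GCGNGGGCG and 17.8% TGACG. Of the 9 windows of these 7 genes, 0 held a CArG box, 1 held TGACGTCA, 0 held TGANTCA, 3 held GCGNGGGCG and 7 held TGACG. Maff accounts for 3 of the 9 windows. Because TGACG was chosen from these same sequences, its count cannot be weighed against the 17.8%. No window of Egr1, Ier2 or Myc was searched, so these counts do not cover those genes. TGACGTCA lay 29 to 22 bases before the printed Maff start, where it reads the same on both strands. GCGNGGGCG lay 50 to 42 bases before the Fosb start, 88 to 80 before the printed Maff start and, on the opposite strand, 60 to 52 before the Nr4a1 start. TGACG stood at 2 places before Fos (129 to 125 and 66 to 62 bases), at 106 to 102 before Junb, at 60 to 56 before Fosb, at 7 to 3 before Atf3 on the opposite strand, and at 4 places on the opposite strand before Nr4a1. It also lay within the TGACGTCA of the printed Maff window and, on the opposite strand, 122 to 118 bases before another Maff start. The Jun window held none of the 5 motifs. A match of letters is no proof of a bound site, and motifs outside these windows were not searched.

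The genes lie on 7 chromosomes of GRCm38 and all are annotated as protein coding. Nr4a1 (101254269 to 101274795), Maff (79346621 to 79359076) and Myc (61985391 to 61990374) lie on chromosome 15, all on the plus strand. Junb (84974484 to 84978718) and Ier2 (84661331 to 84662852) lie on chromosome 8 on the minus strand. Fos spans 85473890 to 85477273 on chromosome 12, Fosb 19302696 to 19310051 on chromosome 7, Jun 95049034 to 95052222 on chromosome 4, Atf3 191170296 to 191218039 on chromosome 1 and Egr1 34859823 to 34864984 on chromosome 18. Jun shares 232 exon bases (7.28% of its exons) with the antisense transcript Junos, which held 140 counts over all mice against 16572 for Jun. Junb shares 173 exon bases (7.52%) with Prdx2 on the other strand, which held 45084 counts against 4638 for Junb. Whether the counting used the strand is not given in the sources used here, so Prdx2 reads in that stretch cannot be told apart from Junb reads.

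Per kilobase of exon, Jun was the most abundant member at 14.9 ± 4.31 CPM per kb (SD over the 16 mice), followed by Nr4a1 at 10.3 ± 4.46, Junb at 5.79 ± 3.14, Ier2 at 5.19 ± 1.77, Atf3 at 5.03 ± 2.48 and Egr1 at 4.54 ± 7.34. Maff stood at 3.25 ± 1.12, Fos at 1.45 ± 1.09, Myc at 1.14 ± 0.461 and Fosb at 0.157 ± 0.0788 CPM per kb. Most neighbors in this order did not differ beyond their spread. Maff was above Fos, and Myc above Fosb, in 16 of 16 mice. Jun was above Nr4a1 in 12 of 16 mice, Nr4a1 above Junb in 13 and Junb above Ier2 in 11, while Egr1 exceeded Maff in only 4 mice although its mean was higher. Fosb was close to the limit of the sequencing in some mice, with 4 to 38 counts, and Fos had 11 to 178.

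**Figure D1:**
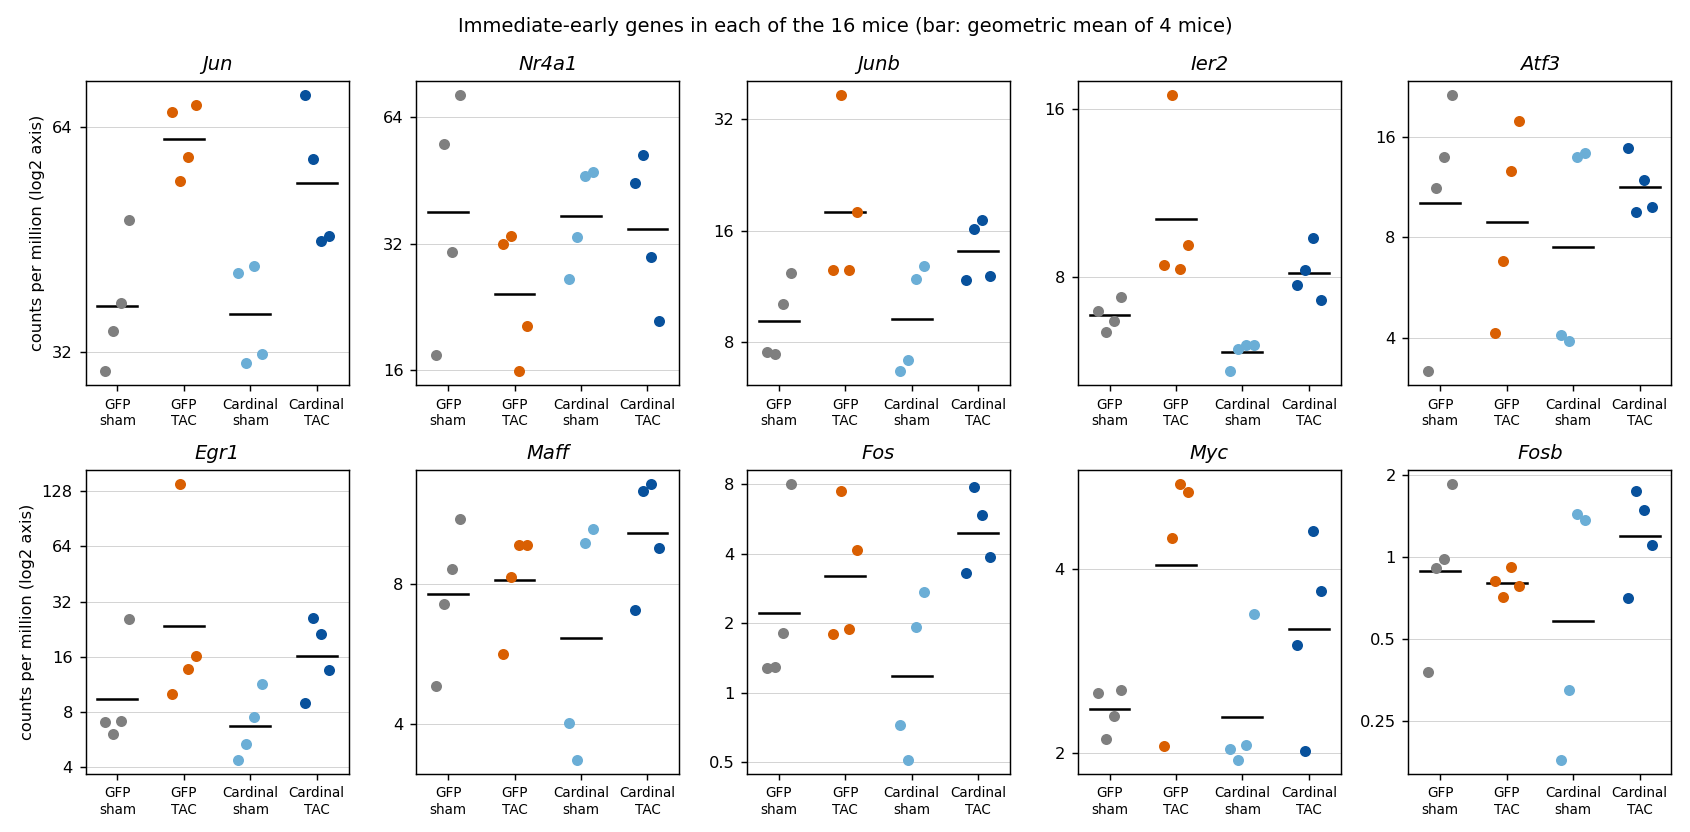
Each panel plots 1 gene in CPM on a log2 axis for the 4 groups; each point is a mouse, placed from left to right by its number, and the bar is the geometric mean of 4 mice. Jun was higher in every TAC mouse than in every sham mouse of the same virus, and Egr1 reached 141 CPM in a single AAV9-GFP TAC mouse.

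With the GFP virus, 4 weeks of pressure overload left Jun, Junb, Ier2 and Myc above sham, by 1.66-fold, 2.14-fold, 1.56-fold and 1.84-fold. Thus 4 of the 10 genes passed the threshold (edgeR's quasi-likelihood test, Benjamini-Hochberg adjusted p under 0.05 over all genes tested), all of them upward, against a background of 17.4% of all genes called, 8.49% upward. The other 6 did not pass, and 3 of them had negative estimates. The median log2 fold change of the 10 was 0.48, and 0.005 over all genes tested. In whole heart tissue, a higher level can mean more RNA per cell or more cells of a type, which cannot be told apart. Among cell type markers, 4 of 5 of cardiomyocytes fell and 3 of 5 of fibroblasts rose in this comparison, as did 2 of 5 of endothelial cells (Egfl7 and Cdh5), 1 of 5 of mural cells (Pdgfrb) and the atrial marker Dkk3. The summed levels moved from 33840 to 37560 CPM in sham to 26690 to 32500 CPM in TAC for cardiomyocytes, and from 423.2 to 482.9 CPM to 574.6 to 711.7 CPM for fibroblasts. Their part in the changes of the immediate-early genes was not tested.

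Jun, the AP-1 subunit that can also pair with itself, was at 30.1, 34.1, 37.1 and 48.0 CPM in AAV9-GFP sham mice and at 67.0, 54.1, 58.4 and 68.6 CPM in AAV9-GFP TAC mice. Every TAC mouse was above every sham mouse. The log2 fold change was 0.73 (SE 0.16, n = 4 and 4, edgeR adjusted p = 0.0061), and an exact two-sided permutation test of the 4 mice against 4 gave 0.029, the smallest p that this design allows. Jun passed the threshold in 16 of 16 fits that each left out 1 mouse.

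Junb, a Jun relative of weaker activity, was at 7.52, 7.44, 10.1 and 12.3 CPM in AAV9-GFP sham and at 12.5, 37.2, 12.6 and 17.9 CPM in AAV9-GFP TAC. The groups did not overlap, although the lowest TAC mouse was just above the highest sham mouse. The log2 fold change was 1.10 (SE 0.33, edgeR adjusted p = 0.030). Without mouse 3 of AAV9-GFP TAC it was 0.62 and did not pass (edgeR adjusted p = 0.13). Leaving out mouse 1, 2 or 3 of AAV9-GFP sham also ended the call, with adjusted p values from edgeR of 0.084, 0.085 and 0.060. Ier2 was at 6.95, 6.39, 6.66 and 7.38 CPM in sham and at 8.40, 17.0, 8.27 and 9.13 CPM in TAC, again with no overlap. Its log2 fold change was 0.64 (SE 0.19, edgeR adjusted p = 0.026). Without mouse 3 of AAV9-GFP TAC the log2 fold change was 0.33. Leaving out mouse 1, 2 or 3 of AAV9-GFP sham ended the call of Ier2, at edgeR adjusted p values of 0.054, 0.068 and 0.063, as did a fit of the 8 AAV9-GFP mice alone (0.097).

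Groups without overlap in the upward direction thus numbered 3 of the 10 genes, beside 10.1% of all genes tested. Myc, which had the fewest counts among the genes called, was at 2.51, 2.11, 2.30 and 2.54 CPM in AAV9-GFP sham and at 2.06, 4.49, 5.51 and 5.35 CPM in AAV9-GFP TAC. Mouse 1 of the TAC group was below all 4 sham mice, while the other 3 were above them. The log2 fold change was 0.88 (SE 0.29, edgeR adjusted p = 0.046), the exact permutation p was 0.14, and only 4 of 16 fits with 1 mouse left out called it.

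Egr1 had the largest estimate of the 10 genes, a log2 fold change of 1.98 (SE 0.76), but did not pass (edgeR adjusted p = 0.091). It was at 7.09, 6.10, 7.15 and 25.7 CPM in AAV9-GFP sham and at 9.99, 141, 13.8 and 16.1 CPM in AAV9-GFP TAC. The estimate rested on mouse 3, since the log2 fold change without it was 0.21. Fos, the classic AP-1 partner of Jun, was at 1.28, 1.30, 1.81 and 8.07 CPM in sham and at 1.80, 7.47, 1.88 and 4.17 CPM in TAC, with overlapping groups and a log2 fold change of 0.31 (SE 0.62). Mouse 4 of the sham group was the highest of these 8 mice for Fos.

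Fosb, Atf3 and Maff had log2 fold changes of -0.35 (SE 0.52), -0.26 (SE 0.53) and 0.07 (SE 0.34), and edgeR adjusted p values of 0.72, 0.81 and 0.93. Atf3 ranged from 3.17 to 21.4 CPM in sham and from 4.11 to 17.9 CPM in TAC, so each group spanned most of the other. Nr4a1 ranged from 17.4 to 72.4 CPM in sham and from 15.9 to 33.4 CPM in TAC. Its log2 fold change of -0.79 (SE 0.39) was the only estimate below these, and it did not pass (edgeR adjusted p = 0.19).

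**Figure D2:**
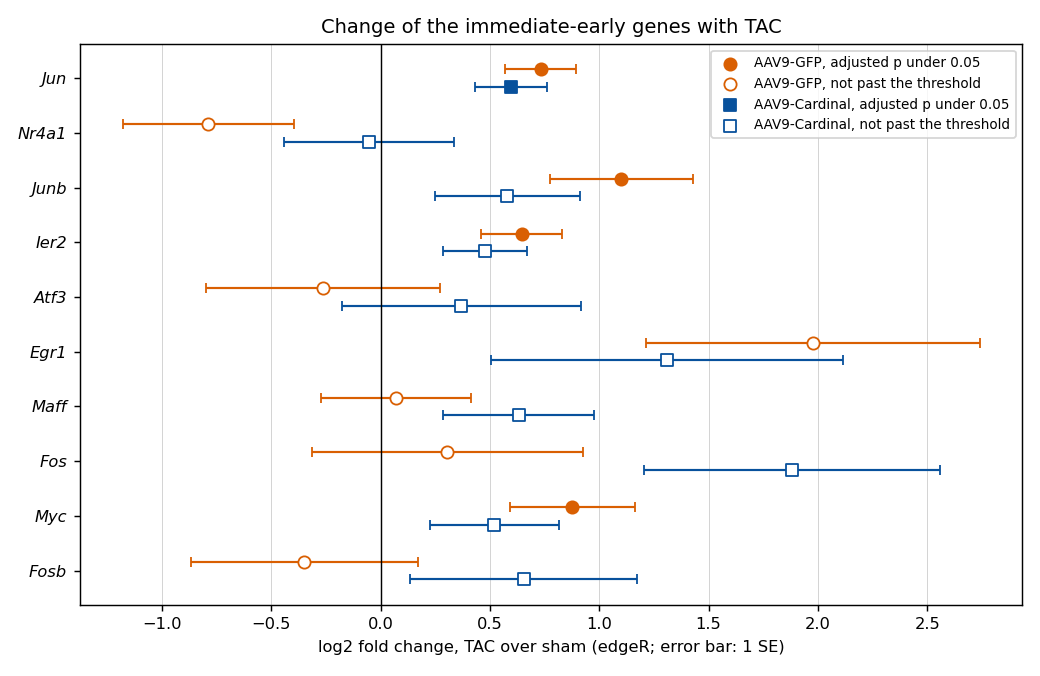
The horizontal axis gives the log2 fold change of TAC over sham from edgeR with an error bar of 1 SE for each gene, as circles for AAV9-GFP and squares for AAV9-Cardinal; filled symbols passed an adjusted p of 0.05. Jun passed in both viruses, at 0.73 and 0.60, and the widest error bars belonged to Egr1, Fos, Fosb and Atf3.

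With the Cardinal virus, only Jun passed the threshold for TAC, at 1.51-fold of sham. That is 1 of 10 genes, where 6.48% of all genes were called and 3.1% were called upward. Of the 10 estimates 9 were positive, with a median log2 fold change of 0.59 against -0.0005 over all genes tested. Jun was at 40.8, 30.9, 41.7 and 31.8 CPM in AAV9-Cardinal sham and at 70.7, 58.1, 45.03 and 45.8 CPM in AAV9-Cardinal TAC. All 4 TAC mice were above all 4 sham mice, with a log2 fold change of 0.60 (SE 0.16, n = 4 and 4, edgeR adjusted p = 0.044). The value lay near the threshold, and 9 of the 16 fits with 1 mouse left out did not call it, with adjusted p values from edgeR of up to 0.13.

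Fos gave the largest estimate in AAV9-Cardinal hearts. It was at 0.723, 0.511, 1.92 and 2.72 CPM in sham and at 3.32, 7.75, 5.91 and 3.87 CPM in TAC, with no overlap. The log2 fold change was 1.88 (SE 0.68), the exact permutation p was 0.029, and the adjusted p of 0.11 from edgeR missed the threshold. Ier2 also separated the groups, with 5.42, 5.95, 6.05 and 6.03 CPM in sham and 7.74, 8.22, 9.41 and 7.27 CPM in TAC. Its log2 fold change of 0.48 (SE 0.19) did not pass (edgeR adjusted p = 0.16). Groups without overlap upward were thus 3 of 10 genes, Jun, Fos and Ier2, beside 6.51% of all genes tested.

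Egr1 was at 4.38, 5.34, 7.54 and 11.4 CPM in AAV9-Cardinal sham and at 8.94, 26.2, 21.2 and 13.6 CPM in AAV9-Cardinal TAC. Only the lowest TAC mouse fell within the sham range, and the log2 fold change of 1.31 (SE 0.80) did not pass (edgeR adjusted p = 0.37). Junb, Maff, Fosb and Myc had log2 fold changes of 0.58 (SE 0.33), 0.63 (SE 0.35), 0.65 (SE 0.52) and 0.52 (SE 0.30), and Atf3 0.37 (SE 0.55). Nr4a1 was the only member with a negative estimate, -0.05 (SE 0.39). None of these 6 passed. In this comparison 0 of 5 cardiomyocyte markers and 0 of 5 fibroblast markers were called. The nearest of each just missed, with edgeR adjusted p values of 0.0525 and 0.0505. The median log2 fold changes were -0.066 for cardiomyocyte and 0.316 for fibroblast markers.

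Between the viruses, the question was whether Cardinal changed the level of these genes with or without pressure overload. In sham hearts 0 of 10 genes were called and 0 had an unadjusted p under 0.05 in edgeR, and DESeq2 also called 0. The background was 0.0119% called and 2.59% with an unadjusted p under 0.05. Of the estimates, 9 were negative, from -1.14 for Fos (SE 0.70) to -0.03 for Myc (SE 0.31), and Junb was at 0.03 (SE 0.34). Ier2 was lower in all 4 AAV9-Cardinal sham mice than in all 4 AAV9-GFP sham mice (5.86 ± 0.298 against 6.85 ± 0.425 CPM, SD, n = 4, exact permutation p = 0.029), as were 1.16% of all genes tested. The edgeR estimate for Ier2 was -0.22 (SE 0.19).

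In TAC hearts 0 of 10 genes were called between the viruses in edgeR and in DESeq2, where 0.101% of all genes were called. That background was unstable. The 17 genes called became 535 without mouse 1 of AAV9-Cardinal TAC and 0 without mouse 3 of AAV9-GFP TAC. They also became 0 without mouse 2 of AAV9-GFP sham, a group outside this comparison. The unadjusted p was under 0.05 for 1 gene, Ier2, beside 15.0% of all genes. Ier2 was lower with Cardinal by a log2 fold change of -0.39 (SE 0.18, edgeR adjusted p = 0.33), with 8.16 ± 0.916 CPM against 10.7 ± 4.21 CPM (SD, n = 4). Egr1 had the largest estimate, -1.37 (SE 0.74), and it was 0.40 without mouse 3 of AAV9-GFP TAC. The difference in the TAC effect between the viruses was called for 0 of 10 genes, had an unadjusted p under 0.05 for 0 and was called by DESeq2 for 0, beside 0.0119% of all genes called and 10.2% with an unadjusted p under 0.05. For Jun, the gene called in both viruses, this difference was -0.14 on the log2 scale, with an interval of 2 SE from -0.60 to 0.33. For Fos it was 1.58, from -0.27 to 3.42, and for Junb -0.52, from -1.45 to 0.41. Such intervals leave room for differences of the size of the TAC effects themselves.

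The immediate-early genes varied widely among mice that had the same virus and the same surgery. The SD of log2 CPM within groups was 1.09 for Egr1, 0.98 for Fos, 0.92 for Atf3, 0.80 for Fosb and 0.64 for Nr4a1, while the median over all genes tested was 0.17. It was 0.56 for Maff, 0.49 for Junb, 0.45 for Myc, 0.26 for Ier2 and 0.25 for Jun. Against genes of like level (within 0.5 log2 CPM), each of the 10 was among the more variable, since between 86.5% (Ier2) and 99.7% (Egr1) of those genes had a smaller SD. In AAV9-GFP sham hearts the highest mouse exceeded the lowest by 6.76-fold for Atf3, 6.32-fold for Fos, 4.91-fold for Fosb, 4.22-fold for Egr1 and 4.17-fold for Nr4a1. In AAV9-Cardinal sham hearts the ratio was 7.98-fold for Fosb and 5.33-fold for Fos.

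The same mice were high for many of the genes. Mouse 4 of AAV9-GFP sham was the highest of its group for 10 of 10 genes, whereas it was the highest for 27.1% of all genes tested. Mouse 4 of AAV9-Cardinal sham was the highest for 7 of 10 (26.4% of all genes) and mouse 3 for the other 3 (23.7%). Mice 1 and 2 of that group were the lowest for 5 each (25.3% and 22.7% of all genes). In AAV9-GFP TAC, mouse 3 was the highest for 5 of 10 (22.7% of all genes) and mouse 1 the lowest for 6 (27.1%). In AAV9-Cardinal TAC, mice 4 and 5 were the highest for 4 genes each (22.4% and 21.5% of all genes). Mouse 1 of that group was the lowest for 5 (30.2% of all genes) and the highest for 2 (31.1%).

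The mouse number was therefore set against these levels within groups, in a model that gives each group its own mean and a common slope per unit of the number. No member passed the threshold (0 of 10 in edgeR, 1 by DESeq2), where 5.33% of all genes tested did. An unadjusted p under 0.05 was reached by 4 of 10 genes, Maff, Myc, Atf3 and Fosb, beside 20.2% of all genes. All 4 had higher levels in mice with higher numbers. Maff was nearest, with a log2 slope of 0.20 per unit (SE 0.058, edgeR adjusted p = 0.055), and an exact permutation of the numbers within groups gave 0.0015. Atf3 had a slope of 0.26 (SE 0.097, edgeR adjusted p = 0.14, exact permutation p = 0.0079), Fosb of 0.22 (SE 0.10, edgeR adjusted p = 0.24, exact permutation p = 0.0060) and Myc of 0.14 (SE 0.051, edgeR adjusted p = 0.12, exact permutation p = 0.071). These exact p values are unadjusted and come from 10 tests, 1 for each gene. Fos, with a slope of 0.25 (SE 0.13), had an exact permutation p of 0.051, and Jun, Ier2 and Nr4a1 had slopes of -0.02, -0.003 and -0.03.

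Maff shows the pattern in single values. It was at 4.82, 7.25, 8.62 and 11.0 CPM in AAV9-GFP sham mice 1, 2, 3 and 4, and at 4.02, 3.35, 9.80 and 10.5 CPM in AAV9-Cardinal sham mice of the same numbers. It was at 5.66, 8.27, 9.67 and 9.70 CPM in AAV9-GFP TAC mice 1, 3, 4 and 7, and at 7.04, 12.6, 13.1 and 9.53 CPM in AAV9-Cardinal TAC mice 1, 4, 5 and 6. In AAV9-GFP sham and TAC the order of Maff levels followed the numbers, and in both Cardinal groups it did so in part. Atf3 was at 3.17, 11.2, 13.9 and 21.4 CPM in AAV9-GFP sham, 4.07, 3.90, 13.9 and 14.3 CPM in AAV9-Cardinal sham, and 4.11, 6.80, 12.6 and 17.9 CPM in AAV9-GFP TAC. In AAV9-Cardinal TAC it ran the other way, with mouse 1 the highest at 14.8 CPM and the others at 9.49, 11.9 and 9.85 CPM.

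**Figure D3:**
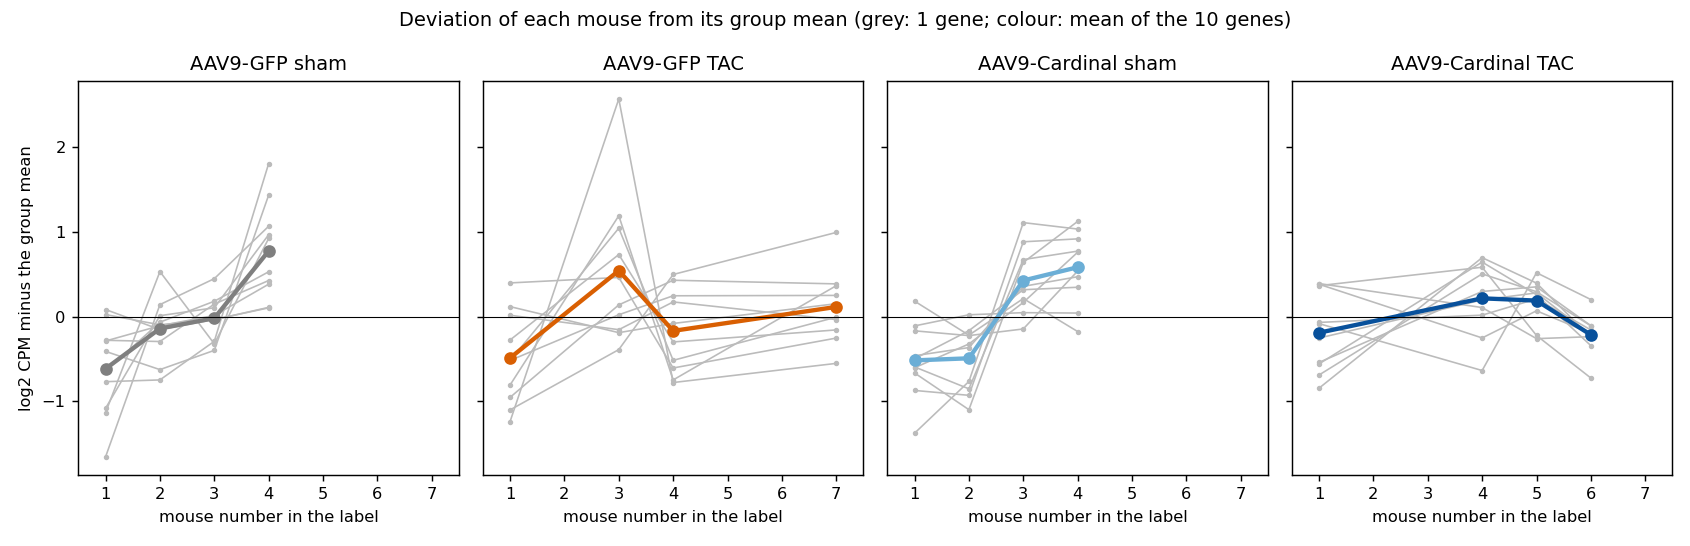
Each panel is a group; the horizontal axis is the mouse number and the vertical axis the log2 CPM minus the group mean, with a grey line for each of the 10 genes and a colored line for their mean. In both sham groups the mean was lowest in mouse 1 (-0.62 and -0.52) and highest in mouse 4 (0.77 and 0.58), and in the TAC groups it did not follow the number.

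Slopes were also estimated for each group. Fitted group by group, the slope was positive for 10 of 10 genes in AAV9-GFP sham and for 9 of 10 in AAV9-Cardinal sham, with Atf3 at 0.79 and 0.73, Fos at 0.97 and 0.77, Fosb at 0.67 and 1.01 and Maff at 0.38 and 0.57 log2 units per number. In the TAC groups Atf3 was at 0.35 and -0.11, Fos at 0.08 and 0.09, and Maff at 0.12 and 0.13. The TAC numbers also span a wider range than the sham numbers. A test of whether the slopes differ among the 4 groups called 0 of 10 genes (lowest edgeR adjusted p 0.69, for Atf3), as it called 0.0% of all genes. The unadjusted p was under 0.05 for 5 of the 10, beside 5.9% of all genes. In the 8 sham mice alone, the slopes of Fos, Fosb, Atf3, Junb, Maff and Egr1 had edgeR adjusted p values between 0.074 and 0.094, and 0 of all genes passed there.

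Mean deviations of the 10 genes from their group means were -0.62, -0.14, -0.02 and 0.77 in AAV9-GFP sham mice 1 to 4 and -0.52, -0.49, 0.43 and 0.58 in AAV9-Cardinal sham mice 1 to 4. They were -0.49, 0.54, -0.17 and 0.11 in AAV9-GFP TAC mice 1, 3, 4 and 7, and -0.19, 0.22, 0.19 and -0.21 in AAV9-Cardinal TAC mice 1, 4, 5 and 6. By this mean, AAV9-Cardinal TAC spanned the narrowest range and mouse 3 stood above the rest of AAV9-GFP TAC. Genes that move in opposite directions cancel in such a mean, and single genes differed. In AAV9-Cardinal TAC the SD of log2 CPM was the smallest of the groups for Fos (0.55) but the largest for Jun (0.31). The count of all genes called for the number, 899, fell to 238 without mouse 1 of AAV9-Cardinal TAC and to 256 without mouse 1 of AAV9-GFP TAC. Without AAV9-Cardinal TAC mouse 1, Atf3 passed the threshold with a slope of 0.46 (edgeR adjusted p = 0.025).

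Some of the genes moved together within groups, described here over 16 mice that share libraries and with no test. Of the 45 pairs, 39 had a positive Pearson correlation of their deviations from the group means, with a median r of 0.42. Junb, Egr1, Fos and Ier2 went together, with r of 0.91 for Junb and Egr1, 0.88 for Fos and Junb and 0.88 for Egr1 and Ier2. Fosb, Maff and Atf3 also went together, with r of 0.91 for Fosb and Maff, 0.81 for Atf3 and Maff and 0.72 for Fosb and Atf3. Fos had high r with these as well, 0.77 to Maff and 0.70 to Fosb. Jun and Myc stood apart, with r of -0.35 to each other, and Jun had r of -0.03 with Junb and 0.24 with Fos. A split into these 2 sets depended on mouse 3 of AAV9-GFP TAC. Without it r was 0.85 for Junb and Egr1 and 0.74 for Junb and Ier2, while r between the sets was higher, at 0.81 for Junb and Maff, 0.76 for Junb and Fosb and 0.66 for Egr1 and Maff, against 0.64, 0.56 and 0.48 with it.

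**Figure D4:**
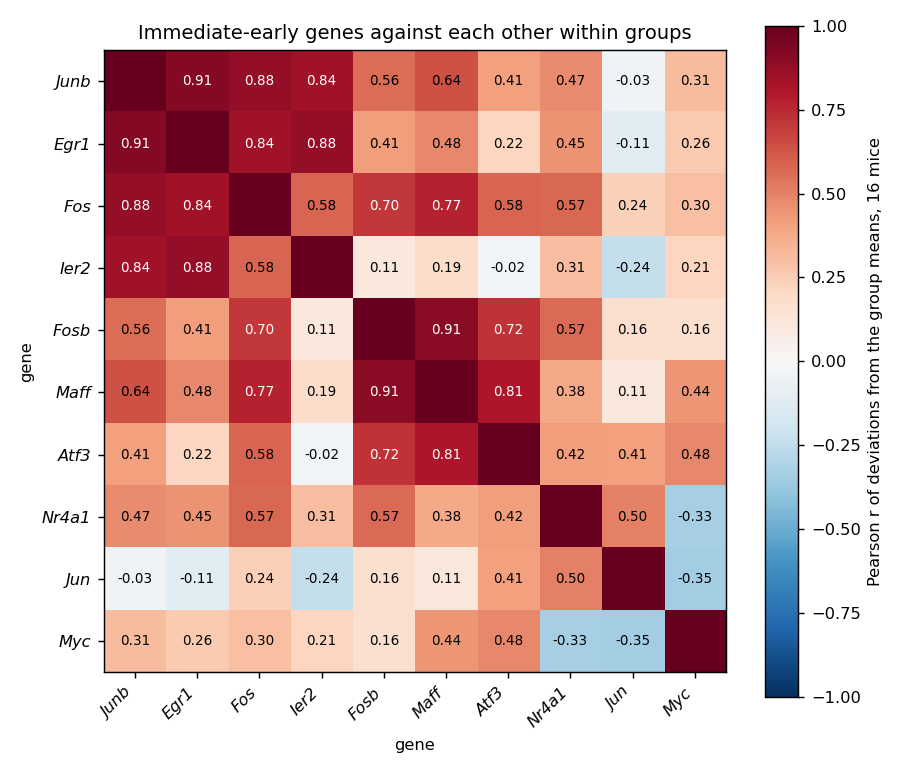
The color and number in each cell give the Pearson r of 2 genes' deviations from their group means in log2 CPM over 16 mice. Junb, Egr1, Fos and Ier2 form a block at the upper left, Fosb, Maff and Atf3 another in the middle, and Jun had its highest r, 0.50, with Nr4a1 and Myc its highest, 0.48, with Atf3.

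Other genes followed the same deviations. Ranked by Pearson r with the mean deviation of the 10 genes over the 16 mice, among genes averaging 1 CPM or more, the 8 most alike were Olfr1034 (r of 0.94), Sema3f (0.93), Cmtm6 (0.90), Litaf (0.90), Ccdc6 (0.90), Xbp1 (0.90), Ap1g1 (0.90) and Desi1 (0.90). Olfr1034 is an olfactory receptor gene at 0.943 to 2.395 CPM, and Xbp1, at 27.5 to 43.3 CPM, encodes a factor of the unfolded protein response. All 11 heat shock genes listed (Hspa8, Hspb1, Dnajb1, Bag3 and others) had a positive r, from 0.65 to 0.85 with a median of 0.77. That was close to the median of 0.76 for the 10 genes with their own mean, to which each contributes, and the median over all genes tested was -0.03. Hemoglobin and other erythroid markers had r of 0.52 to 0.56, cardiomyocyte markers -0.31 to 0.31, fibroblast markers -0.35 to 0.09, endothelial markers 0.12 to 0.69 and macrophage markers -0.41 to 0.40.

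In TAC hearts the 11 heat shock genes included 1 that fell with AAV9-GFP (Hspd1, by 0.26 on the log2 scale, SE 0.075) and 1 that rose with AAV9-Cardinal (Hspb1, 0.98, SE 0.27). Of 18 circadian clock genes, 1 rose (Arntl, 1.43, SE 0.47) and 2 fell (Per2 and Nr1d2) in AAV9-GFP hearts, and 1 fell in AAV9-Cardinal hearts (Nr1d2), shares near the 17.4% and 6.48% of all genes called. Some of these lists also went with the mouse number, for which 5.33% of all genes tested were called. Genes called by edgeR for the number included 3 of 11 heat shock genes, all higher with higher numbers (Hspb1, slope 0.17, Hspa8, 0.16, and Bag3, 0.11), and 4 of 5 erythroid markers (Hbb-bt, 0.19, Hba-a2, 0.19, Hba-a1, 0.19, and Hbb-bs, 0.19). Of 18 circadian clock genes 2 were higher, among them the core activator Arntl (0.32) and the repressor Nfil3 (0.30), and 5 were lower, among them Dbp (-0.26) and Ciart (-0.26). Lists described below also held genes called for the number. Higher and lower were 2 and 3 of 23 upstream kinases and transcription factors, and 3 and 1 of 17 dimer partners. For 30 feedback regulators these counts were 3 and 1, and for 9 secreted factors 2 and 0. For 15 other immediate-early transcription factors they were 1 and 0. The part of any of these lists in the levels of the immediate-early genes was not tested.

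Egr3, a gene related to Egr1, rose with TAC in both viruses. Of 18 other immediate-early transcription factors, 15 were tested, and 3 rose in AAV9-GFP hearts (Egr2, Egr3 and Jund) and 1 in AAV9-Cardinal hearts (Egr3), shares near those of all genes called in either direction (17.4% and 6.48%). Egr3 was at 0.851, 1.11, 0.784 and 1.61 CPM in AAV9-GFP sham and at 3.30, 16.8, 10.6 and 3.74 CPM in AAV9-GFP TAC, a log2 fold change of 2.98 (SE 0.53, edgeR adjusted p = 0.0015). It was still 2.44 (SE 0.47, edgeR adjusted p = 0.0046) without mouse 3. In AAV9-Cardinal hearts Egr3 was at 0.994, 0.604, 0.865 and 1.04 CPM in sham and at 2.08, 4.65, 7.17 and 2.95 CPM in TAC, a log2 fold change of 2.27 (SE 0.58, edgeR adjusted p = 0.032). Egr3 thus separated sham from TAC in both viruses, as did Egr2, while Egr1 did in neither. Of all genes tested, 10.1% in AAV9-GFP and 6.51% in AAV9-Cardinal hearts had groups without overlap upward. Egr2 had a log2 fold change of 3.37 (SE 0.85, edgeR adjusted p = 0.013) in AAV9-GFP hearts, with mouse 3 at 14.3 CPM and the other TAC mice at 0.957 to 1.71 CPM, and 1.54 (SE 0.43, edgeR adjusted p = 0.032) without that mouse. In AAV9-Cardinal hearts Egr2 was at 0.232 to 0.649 CPM in sham and 0.752 to 2.47 CPM in TAC. Its log2 fold change there of 1.70 (SE 0.97) did not pass (edgeR adjusted p = 0.33). Jund, an AP-1 subunit with steadier expression than Jun, rose by 0.39 (SE 0.11, edgeR adjusted p = 0.020) on the log2 scale.

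Several secreted factors and enzymes of the immediate-early class rose with TAC. Of 12 listed, 9 were tested, and 6 rose in AAV9-GFP hearts and 5 in AAV9-Cardinal hearts, with median log2 fold changes of 1.34 and 1.18. Over all genes tested, 8.49% and 3.1% were called upward in these comparisons. Ptgs2, the inducible prostaglandin synthase, had 2.42 (SE 0.45) in AAV9-GFP and 1.71 (SE 0.44) in AAV9-Cardinal hearts. Thbs1, a matricellular thrombospondin, had 2.42 (SE 0.59) and 2.09 (SE 0.60), and Ccn2 rose by 1.24 (SE 0.26) in AAV9-Cardinal hearts.

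Hbegf, an EGF receptor ligand, rose with TAC by 1.41 (SE 0.41) and 1.49 (SE 0.42) in the respective viruses and also went with the mouse number, at a slope of 0.33 (SE 0.032, edgeR adjusted p = 0.00087). It was at 9.79, 9.70, 15.2 and 17.2 CPM in AAV9-GFP sham mice 1 to 4 and at 13.9, 32.4, 35.3 and 56.5 CPM in AAV9-GFP TAC mice 1, 3, 4 and 7. Its slope was thus steeper in relation to its error than that of any of the 10 genes. Without mouse 3 of AAV9-GFP TAC, both TAC changes of Hbegf lost their call, at edgeR adjusted p values of 0.053 and 0.056, with log2 fold changes of 1.444 and 1.498.

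Of the feedback regulators that limit these responses, 30 of 31 listed were tested, and 6 rose with TAC under the GFP virus, beside 17.4% of all genes called and 8.49% called upward. In AAV9-Cardinal hearts 3 rose, Ier5, Btg2 and Plk3, and Gadd45a fell by 1.04 on the log2 scale (SE 0.30). There, 6.48% of all genes were called and 3.1% were called upward. Gadd45a was also lower with higher mouse numbers (slope -0.22, edgeR adjusted p = 0.0044). The numbers run higher in both TAC groups than in the sham groups, for every gene, and their part in this fall was not tested. Ier5, an Ier2 relative, went from 24.0 ± 3.41 to 46.4 ± 10.1 CPM (SD, n = 4) in AAV9-GFP and from 24.4 ± 2.79 to 46.3 ± 8.05 CPM in AAV9-Cardinal hearts. Btg2, an antiproliferative factor, had log2 fold changes of 0.69 (SE 0.19) and 0.81 (SE 0.19). The median log2 fold change of this list was 0.17 in AAV9-GFP hearts and 0.14 in AAV9-Cardinal hearts.

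Upstream of the genes, 23 kinases and transcription factors were tested. In AAV9-GFP hearts 2 rose, the SRF partner Elk3 by 0.56 (SE 0.079) and the kinase gene Mapk7 by 0.52 (SE 0.13), and 5 fell, among them Rps6ka5 by 0.78 (SE 0.19) and Mef2a by 0.46 (SE 0.090). In AAV9-Cardinal hearts 1 rose, Mapkapk2, and 2 fell, Mef2a and Mef2d. Of all genes tested, 17.4% were called in AAV9-GFP hearts and 8.49% were called upward. In AAV9-Cardinal hearts these shares were 6.48% and 3.1%. Among 17 tested dimer partners, Mycn rose (1.08, SE 0.32) and Max, the obligate partner of Myc, fell by 0.50 (SE 0.099) in AAV9-GFP hearts, and Atf2 fell as well, so that the share called was near the 17.4% of all genes. Atf2 was the only partner called in AAV9-Cardinal hearts, where it fell by 0.17 (SE 0.046).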

How the data were processed

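The authors deposited a table of gene counts for 16 mice. Per the submitters' processing notes, FastQC, HISAT2 2.1.0 and edgeR 3.26.1 were used with GRCm38. The counting program, its annotation, its use of strand and its treatment of reads with several hits are not given in the sources used here. Of 55573 gene IDs, 55480 were named with GENCODE M21.

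Counts were filtered with filterByExpr by group, scaled by TMM and tested with edgeR 4.0.16 (R 4.3.3) by quasi-likelihood over the 16 mice together, using Benjamini-Hochberg adjustment over 16857 genes at 0.05. The mouse number entered as a linear term beside the 4 group means. Levels are CPM, and log2 CPM used a prior count of 2. DESeq2 1.42.0 served as an alternative, and scripts were tested on simulated data. Between 16441997 and 21904589 counts per mouse make 3 counts equal to 0.137 to 0.182 CPM, for counting error only. The 10 genes were named in full, and of each other list the called genes with the largest changes, up to 4. The genes and lists were chosen with earlier results of these data known. The values of 1 listed gene are not reported here.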

Additional observations from a re-analysis of the deposited data

Results flagged for a closer look

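In 6 of 40 sets of 4 mice (10 genes in 4 groups), the highest or lowest mouse lay further from the rest than Dixon's 95% critical value allows. For independent values with a normal distribution, chance gives about 1 in 20. The values here are CPM without a log scale, from genes that moved together, so that rate need not hold and the 6 are only a description. Mouse 4 of AAV9-GFP sham was high for Fos at 8.07 CPM and for Egr1 at 25.7 CPM. Mouse 3 of AAV9-GFP TAC was high for Egr1 at 141 CPM and for Ier2 at 17.0 CPM. Mouse 1 of AAV9-Cardinal sham was low for Ier2 at 5.42 CPM, and mouse 4 of the same group, the library of 16441997 counts, was high for Myc at 3.37 CPM.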

How the results depend on the processing

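Of 360 values of single genes under settings other than leaving out a mouse, 329 kept their direction and their side of the threshold, 13 lost a call, 6 gained a call and 12 changed sign; the cause of each change was not tested. For TAC in AAV9-GFP hearts, 4 genes were called, against 2 with no low-count filter and 1 when only the 8 mice compared were fitted; Maff had -0.17 with the mouse number as a linear covariate. Without 1 mouse each, the count was 1 to 5, and log2 fold changes spanned -0.24 to 1.39 for Fos, -0.63 to 0.095 for Fosb, -0.66 to 0.13 for Atf3 and -0.11 to 0.27 for Maff. For TAC in AAV9-Cardinal hearts, 1 gene was called, against 0 with no low-count filter, 0 with the number as a covariate and 2 with only the 8 mice compared, where Fos (adjusted p from edgeR 0.046) and Ier2 (0.025) were called and Jun was not (0.061). Without 1 mouse each it was 0 to 2, and Nr4a1 spanned -0.27 to 0.14.

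Replicate numbers were not taken to pair the mice, since not every same-numbered pair correlated above 0.1. Deviations of mice with the same number correlated at -0.040 to 0.21 (median 0.054), with 4 of 16 pairs over 0.1, all of them between mice numbered 1. Those of different numbers correlated at -0.19 to 0.22 (median -0.013), with 4 of 80 over 0.1. As an alternative, a block was fitted, which gives each replicate number its own term beside the group means. Numbers 5 and 6 occur only in AAV9-Cardinal TAC and 7 only in AAV9-GFP TAC, so the block takes up those mice. For AAV9-Cardinal TAC only mice 1 and 4 then inform the contrasts, so a change under the block cannot be told apart from loss of mice. With the block, 1 gene was called for TAC in AAV9-GFP hearts and 0 in AAV9-Cardinal hearts. Maff was at -0.14 for TAC in AAV9-GFP and Nr4a1 at 0.46 for TAC in AAV9-Cardinal hearts, and Jun at 0.096 between the viruses in TAC hearts and 0.14 for the difference of the TAC effect. Under it Junb, Ier2 and Myc lost their call in AAV9-GFP hearts and Jun in AAV9-Cardinal hearts, and no other call or direction changed.

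Between the viruses in sham hearts, leaving out 1 mouse gave -0.85 to 0.079 for Fosb, -0.13 to 0.10 for Jun, -0.13 to 0.19 for Junb, -1.001 to 0.054 for Egr1, -0.46 to 0.15 for Nr4a1, -0.47 to 0.020 for Maff and -0.23 to 0.050 for Myc. In TAC hearts it gave -1.71 to 0.40 for Egr1 and -0.11 to 0.55 for Atf3, and for the difference of the TAC effect -1.43 to 1.10 for Egr1 and -0.27 to 0.15 for Ier2.

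For the mouse number, 0 genes were called, against 1 by DESeq2, 2 with ranks, 1 with only mice numbered 1 to 4, and 0 to 1 without 1 mouse each. The slope of Jun was 0.080 in sham mice only, that of Egr1 -0.056 in TAC mice only, and that of Ier2 0.051 in mice numbered 1 to 4 and 0.042 in sham mice. Nr4a1 had 0.028 with ranks, 0.17 in mice numbered 1 to 4 and 0.40 in sham mice. Leaving out 1 mouse gave -0.054 to 0.022 for Jun, -0.039 to 0.034 for Ier2 and -0.076 to 0.021 for Nr4a1.

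Over all genes, calls for the number went from 899 to 438 in mice numbered 1 to 4, 238 without mouse 1 of AAV9-Cardinal TAC and 256 without mouse 1 of AAV9-GFP TAC, 0 in sham and 98 in TAC mice only. Calls for TAC in AAV9-Cardinal hearts went from 1092 to 615 with no low-count filter and 31 with the block. Between the viruses in TAC hearts they went from 17 to 117 with the number as a covariate, 444 by DESeq2, 535 without mouse 1 of AAV9-Cardinal TAC, 0 with the block and 0 in 8 of the 16 fits without 1 mouse. For the difference they went from 2 to 146 by DESeq2 and 79 without mouse 1 of AAV9-Cardinal TAC. With 4 mice a group, the SD of Fos, Egr1, Atf3 and Fosb limits what could be detected, and Fosb rests on 4 to 38 counts.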
